A study of Mus musculus with 3 samples.

Results

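To ask what else was open in nuclei that are open at tendon loci, the 1168 highest-scoring nuclei, 10% of the 11675 E16.5 nuclei with 10000 or more counts, were examined. The E16.5 library held 413425059 counts in 14048 nuclei of the 42365 in the series. The gated nuclei were chosen by measured values: the counts in the 34 called peaks (46772 bp) over 7 genes and the 2 kb upstream of each, divided by the total count of the nucleus. The 7 gate loci were Tnmd, Thbs4, Kera, Mkx, Cilp, Fmod and C1qtnf3. The remaining 10507 nuclei that passed the depth minimum were the comparison, called the other nuclei here. Nuclei below the minimum, 2373 in number, were not scored.

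Tenocytes are the matrix-producing cells of tendon. Scleraxis (Scx), a basic helix-loop-helix factor, marks their progenitors, Mohawk (Mkx) is a homeobox factor needed for normal tendon collagen, and tenomodulin (Tnmd) is a membrane glycoprotein of maturing tendon cells. Tendon fibrils are built mainly of type I collagen, and their assembly is regulated by small leucine-rich proteoglycans such as fibromodulin (Fmod) and keratocan (Kera). Open chromatin at a gene or its distal elements shows that transposase could reach the DNA there. It is not a measure of transcript.

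The nuclei came from C57BL/6J embryos carrying Hic1CreERT2/CreERT2 and Rosa26LSLtdTomato/tdTomato, in which Cre sits in the Hic1 gene on both alleles. The dams received 7.5 mg tamoxifen by gavage at E10, so that cells then expressing Hic1, and their descendants, carry tdTomato. tdTomato+ cells were sorted, and those bearing the endothelial marker CD31 or a blood cell marker (Ter119, CD45, F4/80, CD11b, CD117) were removed. Embryos of both sexes were pooled. At E16.5 the tissue was the segment around the elbow, and at E12.5 and E14.5 it was the forelimb. Dispase was used for digestion at E12.5, and Collagenase A, Pronase and DNase were used later. Each stage was 1 library, so nuclei are not replicates and no test between conditions was possible. The intervals below are 95% and cover counting error only.

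The gated nuclei were shallower than the others, with a median of 25036 counts against 31842. The share of counts in promoters hardly differed, with a median of 40.6% against 40.5%. A chrY count was found in 63.9% of gated and 70.3% of other nuclei, and the median chrX share was 1.80% against 1.75%. The part of sex and of depth in these values was not tested. Barcodes found in another library made up 4.45% of the gated and 3.87% of the other nuclei (151 were shared with E12.5 and 401 with E14.5 before the depth minimum). Accessibility is given as counts per 1000000 counts of the same nuclei (CPM), and a ratio is the CPM of gated nuclei over that of the other nuclei.

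Chromatin at the gate loci is a description, since it chose the nuclei. The gated nuclei had a median of 14 counts at the gate loci and the others 6, and the score had a median of 513 against 173 gate counts per 1000000 counts. The last nucleus inside the gate had 415.162, from 20 counts in 48174, and the first outside had 415.055, from 22 in 53005. Thus no gap in the score separated the groups. Of the gated nuclei, 53.1% had a count at 4 or more of the 7 loci, against 15.3% of the others, and 37 had a count at all 7, against 15. At the other extreme, 27 gated nuclei owed their score to 1 locus. The loci contributed unequally: Mkx, with 13 peaks, gave 34.0% of the gate counts of gated nuclei, Thbs4 16.8%, C1qtnf3 15.1%, Fmod 13.98%, Tnmd 7.90%, Cilp 6.91% and Kera 5.38%.

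The regions with the largest ratios outside the gate were distal elements. The 3 of them that hold more than 1 copy of the motif marked below are shown. The promoter of Tnmd, the gate locus with the largest ratio, is shown with them. Of 19 motifs searched, the marked one was most raised in frequency among higher regions. Capitals mark TGGAAA or its reverse complement, the core read by NFAT factors, most of which are activated by calcium signalling. The first 3 are the central 300 bp of called regions, read on the plus strand of GRCm38, and the promoter, credited to RefSeq (GRCm38.p6), runs from 250 bp before to 50 bp after the start site on the plus strand.
Intron of Atl1, chr12:69910072-69910371: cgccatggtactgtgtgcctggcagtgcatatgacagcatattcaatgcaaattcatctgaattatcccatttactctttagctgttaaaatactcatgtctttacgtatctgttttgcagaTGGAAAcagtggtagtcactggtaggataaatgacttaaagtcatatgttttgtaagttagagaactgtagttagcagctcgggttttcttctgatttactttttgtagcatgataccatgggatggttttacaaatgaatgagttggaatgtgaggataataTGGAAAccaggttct
Intergenic, 363491 bp upstream of A730009L09Rik, chr16:84151481-84151780: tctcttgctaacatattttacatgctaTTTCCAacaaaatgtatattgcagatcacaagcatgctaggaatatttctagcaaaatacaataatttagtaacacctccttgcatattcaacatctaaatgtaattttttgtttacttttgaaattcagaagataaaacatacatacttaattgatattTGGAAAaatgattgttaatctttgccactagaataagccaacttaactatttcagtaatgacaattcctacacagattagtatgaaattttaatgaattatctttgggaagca
Intergenic, 98623 bp downstream of Slc10a2, chr8:5006579-5006878: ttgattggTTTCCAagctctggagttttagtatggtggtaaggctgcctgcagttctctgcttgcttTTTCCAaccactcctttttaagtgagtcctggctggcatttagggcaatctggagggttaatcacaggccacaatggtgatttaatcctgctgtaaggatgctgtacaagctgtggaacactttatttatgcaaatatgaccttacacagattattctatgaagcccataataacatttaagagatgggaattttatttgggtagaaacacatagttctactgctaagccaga
Tnmd promoter, chrX:133850758-133851057: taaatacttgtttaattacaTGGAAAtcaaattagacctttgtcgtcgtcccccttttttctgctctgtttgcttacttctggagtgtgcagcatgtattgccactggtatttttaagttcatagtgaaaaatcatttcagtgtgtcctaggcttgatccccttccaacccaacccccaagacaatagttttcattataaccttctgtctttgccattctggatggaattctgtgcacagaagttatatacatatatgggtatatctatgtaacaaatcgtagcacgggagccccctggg

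To give each gate locus a readout that had not chosen the nuclei, the gate was rebuilt on the other 6 loci and the locus left out was read. All 7 loci remained higher in the nuclei so chosen, with a median log2 ratio of 0.72, a ratio of 1.64, and 5 of 7 loci past 1.5-fold. With nuclei thinned to 5000 fragment equivalents before scoring, the median log2 ratio was 0.31. The size differed widely. Tnmd had 27.8 CPM in the nuclei gated without it and 9.22 in the others, a ratio of 3.02 (2.72 to 3.35). Kera had 19.1 against 7.15 CPM, a ratio of 2.66 (2.35 to 3.02). These loci had the largest left-out ratios, although they supplied few of the gate counts.

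Fmod (1.69, 1.56 to 1.83) and Cilp, a cartilage intermediate layer protein of matrix (1.64, 1.47 to 1.84), followed with ratios that do not differ beyond their intervals. Thbs4, a thrombospondin of tendon matrix, had a ratio of 1.55 (1.45 to 1.67). C1qtnf3, a secreted C1q-related protein, had 42.6 CPM against 33.0, a ratio of 1.29 (1.191 to 1.395). The study uses C1qtnf3 as a marker of fascia. Mkx had 93.8 against 82.0 CPM, a ratio of 1.14 (1.08 to 1.21), so the locus that supplied most gate counts was the least raised when it was not used. Without Mkx in the score, 774 of the 1168 gated nuclei (66.3%) were chosen again, whereas 1064 (91.1%) were chosen again without Kera.

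**Figure D1:**
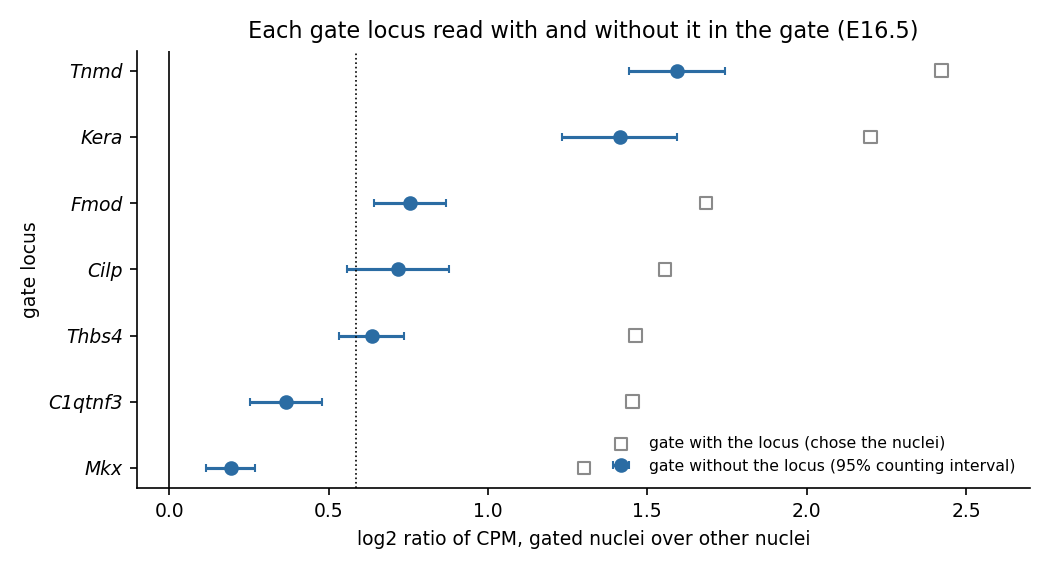
Log2 ratio of CPM between gated and other E16.5 nuclei (x axis) at each of the 7 gate loci (y axis). Open squares are read in the gate that used the locus and only describe it, and filled points are read in a gate built on the other 6 loci, with 95% counting intervals; the dotted line is 1.5-fold. Left-out values run from 0.19 at Mkx to 1.59 at Tnmd.

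When each nucleus was thinned to 5000 fragment equivalents, a count at Tnmd was found in 12.2% of nuclei gated without Tnmd and in 4.39% of the others. The same shares for Kera were 9.08% and 3.09%, and for Mkx 34.6% and 31.6%. In the gate that used Tnmd, 38.5% of gated nuclei (35.7 to 41.4) had a Tnmd count before thinning and 18.8% after, against 11.7% and 3.66% of the others. Tnmd was thus without a count in most gated nuclei at this depth, and absence cannot be read from a nucleus without one.

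The genome outside the gate was then read at 15908 protein-coding loci, each the gene body and the 2 kb upstream, with 5 CPM or more and farther than 100 kb from a gate locus. Of these, 106 (0.666%) were 1.5 times or more higher in the gated nuclei and 195 (1.23%) were 1.5 times or more lower. The minimum is over all nuclei, with 32848322 counts in the gated and 366697918 in the other nuclei. Loci low in the gated nuclei thus pass it more readily than loci low in the others. How many passed it in the lower group alone was not counted. The median log2 ratio of all loci was -0.02, and the middle 90% lay between -0.34 and 0.24, so large differences were rare. Thinning every nucleus in the same way before scoring left 27 higher and 67 lower loci, whereas a gate on the highest 5% gave 220 and 432. The balance turned with a minimum of 20 CPM, which left 46 higher and 23 lower, whereas no minimum gave 238 and 708. The tendon loci stood on the upper side of this spread. Over 5 lists of tendon genes, 54 loci with a value had a median log2 ratio of 0.20. Of these, 45 were above 0, where 44.2% of all loci were, and 8 of the 53 that passed the filter were past 1.5-fold, against the 0.666% of all loci. No tendon locus was 1.5 times lower. These lists were chosen with earlier results of these data known, so they are not an independent readout.

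Among the tendon regulators, 2 of 7 were past 1.5-fold. Scx had 20.8 CPM in gated and 12.7 in other nuclei, a ratio of 1.64 (1.46 to 1.84). All its counts lie in a peak that also overlaps another annotated gene, and the signal cannot be assigned to either. Eya1, a transcriptional co-activator, had a ratio of 1.54 (log2 0.62, 0.53 to 0.72). Eya2 had a log2 ratio of 0.21 and the homeobox factor Six2 of 0.16. The zinc-finger factors Egr2 and Egr1, which act on collagen genes in tendon, had 0.16 and -0.09. The regulators thus differed among themselves, with Eya1 and the peak shared by Scx highest and Egr1 lowest.

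The signalling list held TGF-beta and FGF components, both of which act in tendon formation. Ltbp2, a matrix protein related to the latent TGF-beta binding proteins, was the only member of 11 past 1.5-fold (log2 0.63, 0.56 to 0.70). Fibin came next with 0.31, the ligands Tgfb3 and Tgfb2 had 0.26 and 0.25, and the receptor Tgfbr2 had 0.24. The lowest were Spry1, an inhibitor of FGF signalling, with -0.13 and the FGF-responsive factor Etv5 with -0.04. Altogether 9 of the 11 were above 0 and their median was 0.15.

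Collagens differed in the same direction but unequally, with 9 of 11 above 0 and a median of 0.28. Col22a1 (chr15:71795795-72034227, minus strand), a collagen of tissue junctions such as the myotendinous junction, had 42.25 CPM against 18.99, a ratio of 2.23 (2.05 to 2.42). Col11a1, a fibril-nucleating chain, had a log2 ratio of 0.65 (0.58 to 0.72). The type I chains Col1a1 and Col1a2, which make the bulk of tendon fibrils, had 0.31 and 0.35, and Col12a1 had 0.37. The lowest members were Col3a1 with -0.11 and Col14a1 with -0.05. At promoter peaks alone Col22a1 had -0.45 and Eya1 -0.20, so their gain lay in peaks away from the start site.

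All 8 proteoglycan loci far enough from the gate were above 0, with a median of 0.35. Ecm2 was past 1.5-fold (log2 0.81, 0.65 to 0.98), followed by Podn with 0.50, and the lowest were Prelp with 0.09 and Optc with 0.13. Ecm2, Aspn, Omd and Ogn lie in a row, and all counts of each fall in peaks that other annotated genes share. Their signal cannot be assigned to 1 gene, and whether they vary independently was not tested. Shared peaks also held 74.9% of the Optc, 51.7% of the Podn and 41.6% of the Prelp counts. Dcn, Lum and Epyc lie within 100 kb of Kera and were kept out of the median. Their log2 ratios were -0.03, 0.08 and -0.09, so they did not follow Kera although they are its neighbours.

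Among 17 other matrix and surface genes, Ptx4 (chr17:25120760-25125292, plus strand), a pentraxin, had 12.97 CPM against 5.05, a ratio of 2.57 (2.20 to 2.98). Chodl, a C-type lectin-like membrane protein, had a log2 ratio of 0.78 (0.65 to 0.90). Abi3bp had 0.43, Tnc (tenascin-C) 0.35 and Tgfbi 0.33. The lowest values were Angptl7 with -0.42 (-1.32 to 0.35), which rests on a level near 1 CPM, and Cpxm2 with -0.15, both read in shared peaks. Comp and Thbs2, abundant tendon matrix proteins, had 0.10 and 0.27. The median of the list was 0.13.

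A list from the RNA data of the study served as a readout not chosen on these nuclei: the leading tenocyte genes, 43 of them without the gate loci. Several of these genes are also in the tendon lists. Its median log2 ratio was 0.38, with 37 of 43 above 0 and 10 past 1.5-fold against 0.666% of all loci. Besides Ptx4, Col22a1, Chodl and Scx, the members past that size were Khdrbs2 with 1.17, Chst5 (a sulfotransferase) with 0.93, Itga4 (integrin alpha 4) with 0.81, Ablim3 with 0.76, Olfml2b with 0.75 and Insc with 0.63. Members with no gain included Mfap4 with -0.07. The chondrocyte list had a median of 0.17, with 1 of 47 tested loci past 1.5-fold. Its highest log2 ratio, 0.65, is the value of Col11a1, counted above among the tendon collagens. That gain is thus not particular to the tendon lists. The other 8 lists had medians between -0.19 and -0.02. After thinning the tenocyte median was 0.22.

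**Figure D2:**
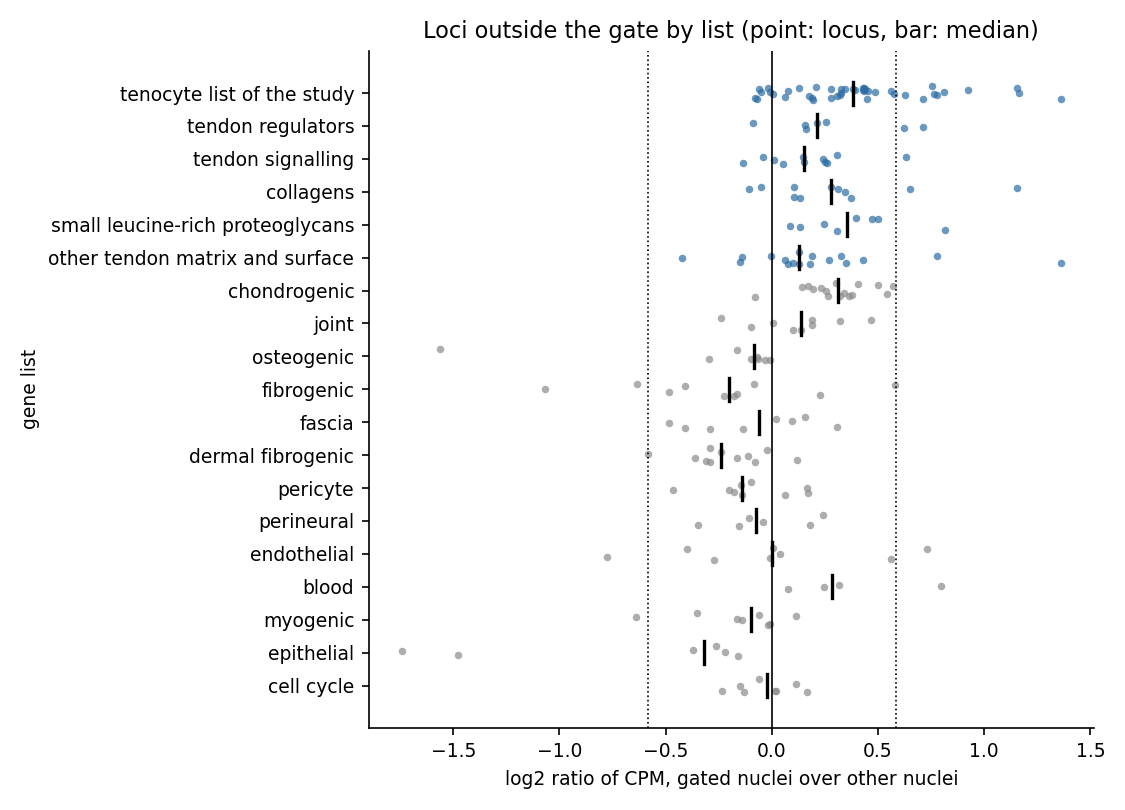
Log2 ratio of CPM between gated and other E16.5 nuclei (x axis) for loci outside the gate, in rows by gene list (y axis). Points are loci, bars are list medians and dotted lines mark 1.5-fold in each direction; the tenocyte list of the study has the highest median, 0.38, and the epithelial list the lowest, -0.32.

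Of all loci outside the gate, the highest ratios belonged to Cyp2j13 (2.84, 2.45 to 3.30), Atp6v1e2 (2.79, 2.49 to 3.12) and Nepn, which encodes the small leucine-rich protein nephrocan (2.71, 2.33 to 3.15). Ptx4, Rgs21, Adgrl4, Sult6b2, Ranbp3l, Khdrbs2 and Col22a1 followed, with ratios from 2.57 to 2.23. Mstn (myostatin, a TGF-beta family ligand), Wdr64, Ccdc85a, Chrm5 and C7 closed the 15 highest, with 2.22 to 2.06. Many of these loci had low levels in the other nuclei, and 11 of the 15 lay below 15 CPM there. Cyp2j13, Nepn and Rgs21 were below 5 CPM in the other nuclei (4.85, 4.87 and 4.77), so they passed the minimum only through the gated nuclei.

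Among the 10 lowest ratios were several genes of surface epithelium. All 10 were below 5 CPM in the gated nuclei and passed the minimum only through the other nuclei, so these ratios are a description. Dmkn (dermokine) had 1.71 CPM in gated and 6.99 in other nuclei, a ratio of 0.244 (0.161 to 0.354). Krt14 and Krt5, keratins of basal epidermis, had ratios of 0.299 and 0.359, and Asprv1, a protease of cornifying epidermis, 0.317. Serpinb7, Lipm and Tmprss11e had 0.289, 0.350 and 0.357, and the olfactory receptor locus Olfr432, Urah and Gm826, with 0.268, 0.329 and 0.353, completed the 10 lowest. Without the nuclei of clusters 7 and 8, described below, Lipm had a log2 ratio of 0.031. Urah shares all its counts with another annotated gene.

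The other lineages were read beside these. All 6 epithelial loci were below 0, with a median of -0.32 and a summed level of 98.2 CPM in gated and 128 in other nuclei, from -1.74 at Krt14 to -0.16 at Epcam. With the 2 clusters highest in epithelial loci left out, described below, 111 loci instead of 195 were 1.5 times lower. That alternative was chosen after seeing the data. Fibrogenic loci had a median of -0.20: Dpt (dermatopontin) had -0.63 and Ly6a (Sca-1), which passed the minimum only through the other nuclei, -1.07, whereas Fap was higher with 0.58. Cd34, Postn and Pi16, which the study uses for fibroblasts, had -0.23, -0.16 and -0.08, and Col15a1, which it uses as well, had 0.22 (0.16 to 0.29). Of the 11 dermal fibrogenic loci 10 were below 0, with a median of -0.24, from Col7a1 with -0.58 to Nkd2 with 0.12; Irx1 and Rspo1 had -0.36 and -0.29.

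Pericyte loci had a median of -0.14 (Abcc9 -0.47, Acta2 0.17), osteogenic loci of -0.08 with 8 read, and fascia loci of -0.06 (Mfap5 -0.48, Clec3b -0.41, Aspn 0.31). Bglap had no count in gated nuclei and only 0.28 CPM in the others, and Col10a1 holds no called peak and could not be read. Perineural loci had -0.08 (Cldn1 -0.35, Lypd2 0.24), myogenic loci -0.10 (Myog -0.64, Pax3 0.12) and Schwann loci 0.00 (Erbb3 -0.27, S100b 0.25). Lypd2, with 2.04 against 1.73 CPM (-0.30 to 0.77), and Myog, with 2.56 against 3.99 CPM, were below the 5 CPM minimum. Endothelial loci were mixed around a median of 0.00, with Emcn at 0.73, Kdr at 0.56 and the defining Cdh5 and Pecam1 at -0.78 and -0.27. Of the 6 blood loci, 4 had a value, all above 0, from 0.08 at Itgam, in shared peaks, to 0.79 at Ptprc (14.6 against 8.42 CPM), while Adgre1 and Gata1 hold no called peak and could not be read. The summed blood list was 266 against 213 CPM, most of it at Runx1 (0.31). The part of any of these cell types in the results was not tested.

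Chondrogenic loci were raised as a list. Of 16 loci 15 were above 0, with a median of 0.31 and none past 1.5-fold. This median was 0.18 after thinning, 0.13 with Fmod taken out of the gate and 0.084 with a gate on the summed ranks of the 7 loci. Snorc (0.57), Col11a2 (0.54) and Sox6 (0.50) were highest, Col2a1 had 0.36, Acan 0.17, Matn1 0.26 and Chad 0.14 (79.7% of the Col11a2 counts and all Chad counts lie in peaks that other annotated genes share), and Sox9, the master regulator of cartilage, was alone below 0 with -0.08. Of the gated nuclei, 16.5% (14.4 to 18.8) were also among the 10% highest for chondrogenic loci, against 9.28% of the others. For the tendon lists outside the gate the shares were 28.9% (26.4 to 31.6) and 7.90%. Joint loci had a median of 0.14, from Osr2 with -0.24 to Prg4 (lubricin) with 0.47, and 15.6% of gated nuclei were in the highest 10% for them.

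At tendon and chondrogenic loci outside the gate, accessibility rose toward the top of the score without a step. The tenocyte list of the study summed to 2299 CPM (2272 to 2327) in the lowest-ranked 10% of nuclei, 2750 in those ranked 10 to 20% from the top, 2986 at 5 to 10%, 3371 at 1 to 5% and 3841 (3729 to 3955) in the top 1%. Col22a1 had 14.2, 26.7, 34.6, 47.2 and 74.4 CPM in the same bins. Krt14 went the opposite way, with 13.7 CPM in the lowest-ranked nuclei, 3.24 just below the gate and no count in the 117 nuclei of the top 1%, whose counts allow up to 3.16 CPM. Summed dermal fibrogenic loci had 762 CPM in the lowest-ranked and 622 in the top 1% of nuclei, and fibrogenic loci 486 and 517. The top 1% were also shallow, with a median of 15580 counts.

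**Figure D3:**
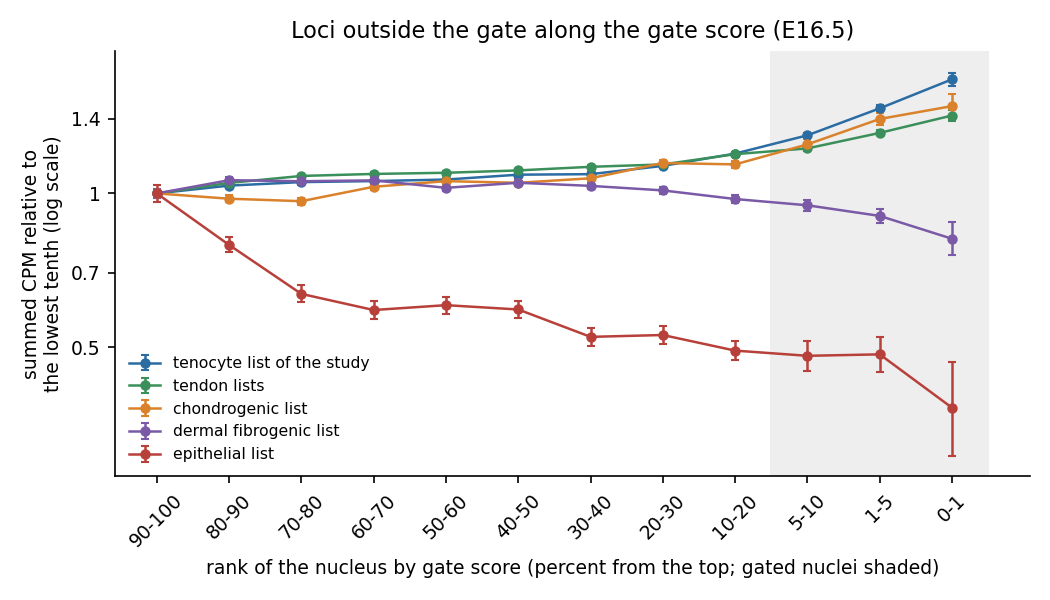
Summed CPM of 5 gene lists outside the gate (y axis, log scale, relative to the lowest-ranked nuclei) by rank of the gate score in percent from the top (x axis), with 95% Poisson intervals on fragment equivalents. The shaded bins are the gated nuclei; the tenocyte list rises from 2299 to 3841 CPM and the epithelial list falls from 207 to 78.7 CPM.

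To see whether the gated nuclei lie together in the rest of the genome, all 11675 nuclei were clustered without any region within 100 kb of a gate locus or of a gene on the tendon and lineage lists. Genes found only on the RNA lists of the study were not left out. They did not form a single group. Of 8 clusters, cluster 6, with 871 nuclei, held the most of them, 381 or 32.6% (29.9 to 35.4), and 43.7% of its nuclei were gated. The share of gated nuclei was 14.2% in cluster 5, 8.85% in cluster 4, between 5.44% and 7.99% in clusters 1, 2 and 3, and 2.11% and 0.415% in clusters 8 and 7. Clusters 7 and 8 had the highest summed epithelial loci, 489 and 548 CPM, where the other 6 had at most 116.

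The levels of the gate loci by cluster are a description, since they chose the gated nuclei by which cluster 6 was picked out, although the clustering had not used them. Tnmd had 48.3 CPM there and at most 15.95 in any other cluster, and Kera 27.7 and at most 10.6. Cilp, Fmod, Thbs4 and C1qtnf3 were also highest in cluster 6, with 36.03, 58.7, 66.3 and 55.2 CPM. Mkx was not: it had 97.2 CPM in cluster 6, 112 in cluster 3 and 105 in cluster 5, and the gated nuclei of cluster 3 drew 60.6% of their gate counts from Mkx. Cluster 4, highest in chondrogenic loci with 1631 CPM, had 36.1 CPM at Fmod and 6.62 at Cilp. Cluster 1 had 44.8 CPM at C1qtnf3, which gave 24.5% of the gate counts of its gated nuclei.

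**Figure D4:**
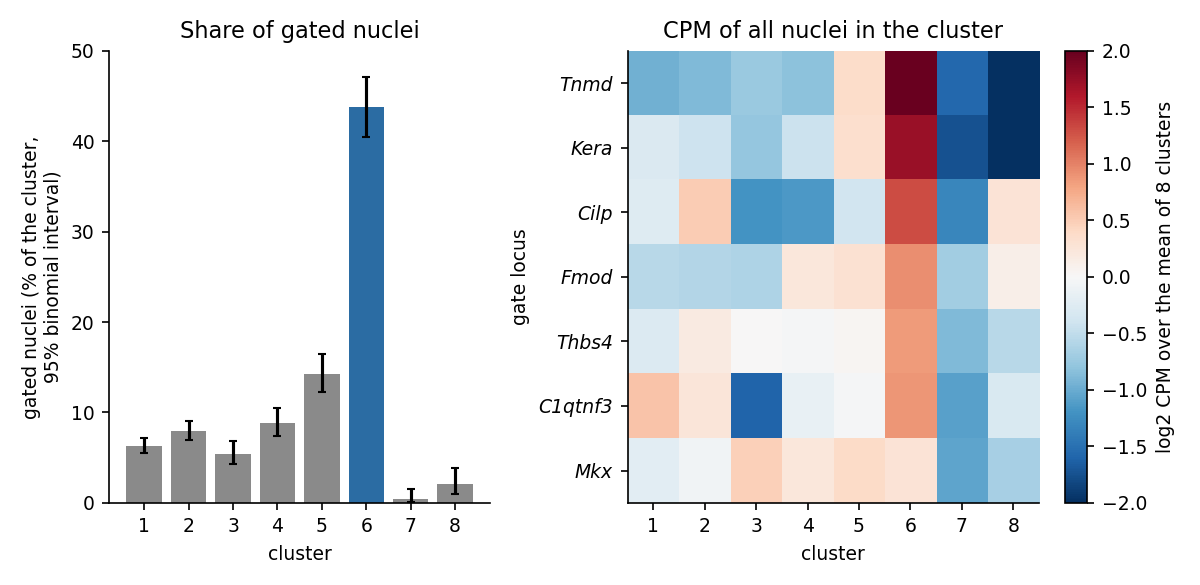
Left, gated nuclei as a percentage of each of 8 clusters of E16.5 nuclei, with 95% binomial intervals; cluster 6 (blue) stands at 43.7%. Right, CPM of each gate locus over all nuclei of a cluster, as log2 over the mean of the clusters, a description of the loci that chose the nuclei; Tnmd and Kera are highest in cluster 6, whereas Mkx is higher in clusters 3 and 5.

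The gated nuclei inside and outside cluster 6 differed in what was open beyond the gate. Against all other nuclei, the 381 inside had a median log2 ratio of 0.41 over the tendon lists, with 16 of 54 loci past 1.5-fold where 3.73% of all loci were. The 787 outside had 0.10, with 1 of 54 past 1.5-fold where 0.107% were. The tenocyte list of the study had 0.76 inside, with 28 of 43 past 1.5-fold, and 0.04 outside, with 0 of 43. Part of that list had entered the clustering, while the regions of the tendon lists had not. The chondrogenic list went the other way, with -0.07 inside and 0.46 outside. All of cluster 6, gated or not, had medians of 0.28 over the tendon lists and 0.68 over the tenocyte list against the rest. By these lists the label tenogenic held for the gated nuclei of cluster 6. The 787 others had hardly any gain at the tenocyte list and a larger 1 at chondrogenic loci. The whole set is therefore called by its gate here.

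Within cluster 6 the gate still separated nuclei, but by less than against all other nuclei. In cluster 6, gated against other nuclei had a median of 0.15 over the tendon lists and 0.19 over the tenocyte list, with 1 of 54 and 1 of 43 loci past 1.5-fold where 0.242% of all loci were. Scx, in its shared peak, was at 1.55 (1.25 to 1.92) there. Col22a1 was at 1.402, and the 490 cluster 6 nuclei outside the gate already had 60.2 CPM, above the 18.5 CPM of the 787 gated nuclei outside the cluster. With all nuclei outside cluster 6 pooled, gated against other nuclei had medians of 0.14 and 0.11, and 0.138% of loci were past 1.5-fold. These medians were above the 0.10 and 0.04 of the 787 against all other nuclei. Col2a1 was at 1.43 (1.36 to 1.51) and Acan at 1.32 (1.17 to 1.49) in that contrast, whereas Ptx4 was at 1.07 (0.776 to 1.44). A cluster like cluster 6 was found with another start, with all regions kept and with 12 clusters, with 94.0% to 99.5% of its own nuclei and 86.9% to 95.4% of those of cluster 6 shared. It held 33.1%, 33.1% and 30.4% of the gated nuclei, and in the first 2 settings a cluster of over 5000 nuclei held 37.1%, with at most 8.65% of its nuclei gated. With 5 clusters no such cluster was found, and the cluster with the largest share of gated nuclei had 14.97%.

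Single regions were read next, in all 1168 gated nuclei pooled. Regions and motifs were not read separately inside and outside cluster 6. Of 96067 called regions at 2 CPM or more and farther than 100 kb from a gate locus, 3577 (3.72%) were 2 times or more higher in gated nuclei and 3919 (4.08%) were 2 times or more lower. Of the higher ones, 3455 were distal and 122 at promoters, and of the lower ones 3690 and 229, although 18257 of all regions were at promoters. Promoter regions had a median of 20.05 CPM and distal regions of 4.20. The 6 with the largest ratios were all distal, and 5 of them were intergenic. Of these 6, 5 had less than 2 CPM in the other nuclei, so they passed the minimum only through the gated nuclei, and their ratios are a description. The region at chr5:17237467-17238212, 135341 bp from the start site of Speer4f2, had 11.4 CPM in gated and 1.353 in other nuclei, a ratio of 8.44 (6.96 to 10.3). A count there was found in 127 gated nuclei, 10.9%, against 1.999% of the others, and in 4.45% against 0.657% after thinning.

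The next regions were at chr9:33445870-33446470 (8.37, 749786 bp from the start of Ets1) and chr2:134260568-134261363 (7.80, 293403 bp from Hao1). The Atl1 intron whose sequence is shown above had a ratio of 7.61 (6.23 to 9.30), the A730009L09Rik region 7.39 (6.22 to 8.82) and the Slc10a2 region 7.20 (6.10 to 8.49). The nearest gene gives a position and not a target. Among the lowest regions, 1 lay 43632 bp from En1, a homeobox gene of limb ectoderm that is also on the dermal fibrogenic list, and 1 in an intron of Afap1l2, with ratios of 0.0663 (0.0163 to 0.234) and 0.0794 (0.0163 to 0.234), each from counts in 3 gated nuclei. Both passed the minimum only through the other nuclei, as did all but 659 of the 3919 lower regions.

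The higher regions lay near tendon genes more often than near other genes. Of the 43 tenocyte list loci, 33 (76.7%) had at least 1 such region within 100 kb of a start site, against 19.5% of all loci, with a median of 16 and 13 regions per locus in that window. Of the 3577 higher regions, 3047 had 2 CPM or more in the other nuclei alone, and with only such regions (a check added after seeing the data) the shares were 74.4% and 17.3%. The share was 71.7% over the tendon lists, 14.9% over the chondrocyte list of the study and 13.3% over the chondrogenic list. Other lists lay between these, among them 3 of 6 osteogenic loci and, over the lists of the study, 38.0% for the perichondrium, 18 of 50 loci for the papillary dermal fibroblast progenitors and 34.0% for the first fibroblast list. Gas2 and Prss35 had 4 of 17 each, Wif1, an inhibitor of Wnt ligands, 4 of 18, Syt7 4 of 21 and Scx 3 of 20, where 1.91% of the regions around all loci were higher.

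The letters of the distal regions were then compared at 19 motifs. TGGAAA was in the central 300 bp of 46.7% (45.1 to 48.4) of the 3455 higher distal regions, 32.7% of all 77810 and 27.7% of the 3690 lower ones. The higher regions were poorer in G and C, with a median of 43.7% against 46.7%, and among regions within the interquartile range of the higher ones the shares were 48.6% and 35.8%. In that range the ETS site, rare at 0.335% of higher and 0.233% of all distal regions, had a larger ratio of these shares. The NFI half-site TTGGCA was in 29.3% against 23.5%. The AP-1 site TGANTCA, bound by Fos and Jun factors, went the other way, with 11.95% of higher, 16.02% of all and 31.4% of lower distal regions. With the same check on the level in the lower group, TGGAAA was in 46.4% of higher and 26.0% of lower distal regions and TGANTCA in 11.6% and 27.0%. Clusters 7 and 8, highest in epithelial loci, held 2 of 482 and 10 of 475 nuclei inside the gate. Regions were not read without these clusters, and their part in the motif shares of the lower regions was not tested. The E-box CATCTG, a site type of Scx, was in 32.4% of higher, 30.2% of all and 31.0% of lower regions, and CAGCTG in 19.2%, 21.7% and 19.7%. CATATG, the other site type of Scx searched, was in 9.26%, 7.71% and 9.86%.

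Both strands were searched, and a match is a string of letters and not a bound site. Regions of 1 library share nuclei and are not replicates. Of the regions printed above, each holds TGGAAA 2 times, the Tnmd promoter holds it once, and the 2 regions with the largest ratios do not hold it in their windows. Of 32851 RefSeq promoters of the same length, 21.4% hold it. The Tnmd promoter peak had 12.4 CPM in gated and 2.91 in other nuclei, which is part of the gate.

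**Figure D5:**
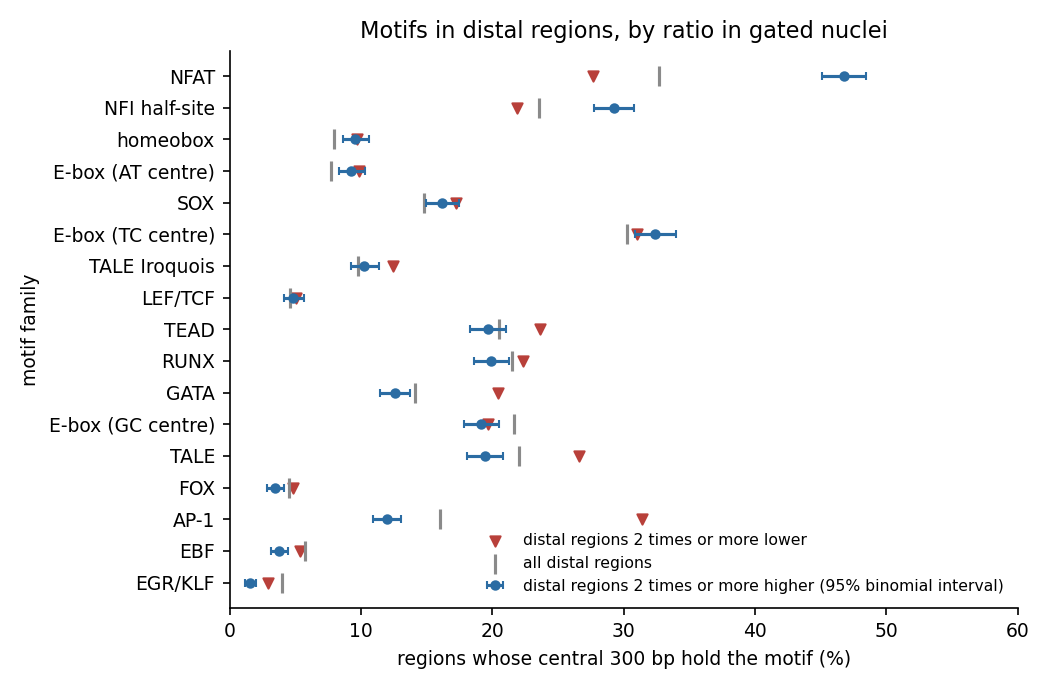
Share of distal regions whose central 300 bp hold a motif (x axis, percent) by motif family (y axis). The SMAD and ETS sites, the rarest of the 19 motifs searched, are not drawn. Points are regions 2 times or more higher in gated nuclei with 95% binomial intervals, bars all distal regions and triangles regions 2 times or more lower; the NFAT core stands at 46.7%, 32.7% and 27.7%, and AP-1 at 11.95%, 16.02% and 31.4%.

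The same gate was applied to the earlier libraries in their own peaks. At E14.5 it took 840 of 8397 nuclei and at E12.5 266 of 2664, with medians of 8 gate counts in the gated nuclei at both stages, 2 in the others at E14.5 and 3 at E12.5. Read at left-out gate loci, the median log2 ratio was 0.09 at E14.5 and -0.06 at E12.5. The tendon lists had 0.04 and 0.05, with 0 of 53 and 1 of 54 loci past 1.5-fold where 0.0712% and 0.448% of all loci were. The E12.5 median was below 0, between -0.0163 and -0.0023, in all 3 alternatives run. At E14.5 the left-out Kera and Tnmd had 0.53 (0.19 to 0.85) and 0.45 (0.01 to 0.89), and outside the gate Nepn had 0.66 (0.23 to 1.097), Col22a1 0.42 (0.17 to 0.66) and Scx 0.02 (-0.22 to 0.25). At E12.5 Ptx4 had 0.62 (0.0078 to 1.22), Col11a1 0.26 (0.06 to 0.47) and Eya1 0.25 (0.07 to 0.42). Scx had 107 CPM in gated and 122 in other nuclei (-0.18, -0.37 to 0.00). Chodl and Khdrbs2 had 0.32 and 0.08, and Ecm2, Col22a1, Ltbp2 and Nepn -0.11, -0.10, -0.09 and -0.03, all with intervals that include 0. Of the chondrogenic loci, Col2a1 had 0.25 (0.06 to 0.43), Acan -0.21 and Sox9 -0.20. The loci read at E12.5 thus had no common direction. These libraries have fewer counts per nucleus, and stage, library, tissue segment and digestion cannot be told apart. The stages are therefore set side by side, and no difference between them was tested.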

How the data were processed

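Nuclei were profiled by droplet single-cell ATAC sequencing (10x Chromium), with Cell Ranger ATAC 1.1.0 per the submitters' processing notes, although the matrix headers give 1.0.1 for E12.5 and E14.5 and 1.2.0 for E16.5. The deposited values are counts of transposase cut sites per peak and nucleus, made by the authors on mm10 with peaks called in each library, so stages were read only in their own peaks. Most values are even because a fragment has 2 cut sites, and intervals were computed on fragment equivalents (counts divided by 2, rounded up).

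Peaks were assigned to GENCODE vM21 genes (GRCm38) by an overlap of 1 bp or more with the body or the 2 kb upstream. Nuclei below 10000 counts were left out. Pooled ratios had exact conditional binomial (Clopper-Pearson) intervals, and summed levels had exact Poisson intervals. Loci needed 5 CPM and regions 2 CPM over all nuclei, and a size of 1.5-fold or 2-fold was used for naming. Promoter regions lay from 1000 bp before to 100 bp after a start site. Thinning drew 5000 fragment equivalents per nucleus. Clustering used latent semantic indexing of 179456 regions (20 components, 1 dropped for its correlation with depth) and k-means. The summaries were tested on simulated data.

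Named genes were the gate loci, the members of the tendon lists past 1.5-fold with the regulators and the 2 highest and 2 lowest of each list, the extremes of every other list and the genes the study names for it, the 15 highest and 10 lowest loci, and the 6 highest and 3 lowest regions. A few results under these rules are not reported here. A few further list members were named after their values were seen. The gate, the lists and these rules were chosen with earlier results of these data known. Alternatives changed the gate width, depth minimum, gate loci, thinning, filter, peaks and clusters. Doublets were not called here. Promoter sequences come from RefSeq (GRCm38.p6), and 6 of 7 gate loci matched. Python 3.11.15, numpy 2.4.6, scipy 1.17.1, pandas 2.3.3, scikit-learn 1.9.0 and matplotlib 3.10.9 were used.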

Additional observations from a re-analysis of the deposited data

Results flagged for a closer look

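At 2 of the 7 gate loci, the readout with the locus left out of the gate had opposite signs at E12.5 and E16.5, with intervals on opposite sides of 0. Mkx had a log2 ratio of -0.31 (-0.53 to -0.09) at E12.5 and 0.19 (0.12 to 0.27) at E16.5. C1qtnf3 had -1.22 (-2.45 to -0.04) at E12.5 and 0.37 (0.25 to 0.48) at E16.5. The difference was not tested, since each stage is 1 library and differs in tissue segment, digestion and peaks.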

How the results depend on the processing

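The median of the tendon lists outside the gate lay between 0.14 and 0.23 in 22 alternatives, and none moved it beyond its tolerance. The median of the tenocyte list moved to 0.49 with the highest 5% gated, 0.27 with the highest 20%, 0.22 after thinning and 0.24 with promoter peaks only. The 106 higher loci became 220 (5%), 54 (20%), 27 (thinned), 36 (promoter peaks), 238 (no filter) and 46 (20 CPM), and the 195 lower loci 432, 85, 67, 104, 708 and 23 in the same order. The left-out gate median was 0.58 with the highest 20% and 0.31 after thinning. The chondrogenic median was 0.18 after thinning and 0.13 without Fmod in the gate. The cluster with most gated nuclei was another, larger one in 3 settings, and held 61.1% of them with 5 clusters and 37.1% both with another start and with all regions kept. At E12.5 the tendon median turned to -0.016 with a 5000 count minimum, -0.0163 with the highest 5% and -0.0023 with the highest 20%. With promoter peaks only, Col22a1 had -0.45 and Eya1 -0.20. Among alternatives chosen after seeing the data, leaving out clusters 7 and 8 gave 111 lower loci and 0.031 at Lipm, and a gate on summed ranks of the 7 loci gave 125 lower loci and a chondrogenic median of 0.084. Without barcodes found in another library the tendon median was 0.21, with 107 higher and 197 lower loci. The cause of these moves was not tested, except that a filter changes which loci are counted. Over 150 named genes, 2800 of 3291 values stayed within the counting interval, 488 moved and 3 reversed. Only genes past 1.5-fold in the main setting could count as reversed. Smaller values that changed sign are among those that stayed or moved.

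Gated nuclei were shared with the thinned gate in 53.9% and with the rank gate in 53.4% of cases. A gate chosen separately within bins of depth shared 86.0% of them. The thinned gate scored fewer counts, whereas the rank gate combined the loci in another way. Membership of a single nucleus, with a median of 14 gate counts, thus depended on how the score was built and is uncertain. The cause of these changes in membership was not tested. No paired analysis was possible because each stage has 1 library.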

Other observations

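Loci of the mesenchymal progenitor list hardly differed between gated and other nuclei, with a median log2 ratio of 0.02 over 9 loci, from -0.19 at Osr1 to 0.17 at Sox11. Hic1, whose Cre allele labelled the cells, had -0.08 (-0.16 to -0.0045). Cell cycle loci had a median of -0.02, from -0.23 at Cdkn1a, an inhibitor of cyclin-dependent kinases, to 0.17 at Cdk1. Limb position loci had -0.03, with Hoxc6 lowest at -0.42 (-0.52 to -0.33) and Hoxa11 highest at 0.11, both in peaks shared with other annotated genes. Early response loci had a median of -0.06, from -0.38 at Atf3 to 0.03 at Fos, and 7.28% of gated nuclei were in the highest 10% for that list, against 10.3% of the others. These values stand beside the lower AP-1 share of the higher regions, and their part in it was not tested.

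The following were chosen after their values were seen. Sox6 and Bbs9 had 7 of 24 (29.2%) and 7 of 26 (26.9%) regions 2 times or more higher in their bodies, where 3.72% of all regions were. Fgfr2, a receptor of fibroblast growth factors, had 8 of 187 (4.28%), near that share. Of the loci of NFAT factors, Nfatc1 had a ratio of 1.25 (1.21 to 1.28), Nfatc2 1.12, Nfat5 1.03, Nfatc4 0.981 and Nfatc3 0.925. Nfia, Nfix and Nfib, nuclear factor I genes, had 1.103, 1.067 and 1.047.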
